A study of Homo sapiens with 6 samples.

Results

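The collagen genes are the genes of the counts table whose symbol reads COL, a number, A and a number with nothing after it, which gave 44 of the 61541 genes counted. They were compared between 3 libraries of MDA-MB-231-D3H2LN, here MDA231-LN, and 3 libraries of its parent MDA-MB-231, here the parental line. Both are human breast cancer cell lines without added alleles or treatment in the labels, kept in high-glucose DMEM with 10% serum, and total RNA was profiled by bulk RNA-seq with reads of 150 bases. MDA-MB-231 is a mesenchymal-like line without hormone receptors that came from a metastatic breast adenocarcinoma. MDA231-LN is known as a luciferase-carrying derivative recovered from a lymph node metastasis in a mouse. The title of the series asks about JAGGED-1 in tumor cells and spread to lymph nodes; the comparison here shows which collagen chains the 2 lines transcribe. Each condition is a single line, so the lymph node origin of MDA231-LN cannot be told apart from the luciferase, passage through a mouse or other features of the cells. Separate cultures are not named for the libraries of 1 line, so p-values measure only the spread between samples that may be technical repeats.

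Collagens are extracellular proteins built from 3 chains wound into a triple helix, which requires glycine at the first position of each repeated triplet. Fibrillar collagens form the banded fibres of connective tissue, collagen IV forms the sheet-like network of basement membranes, and collagen VI forms beaded filaments around cells. FACIT collagens attach to the surface of fibrils, and transmembrane collagens span the plasma membrane with a collagenous part outside the cell. In carcinomas much of the fibrillar collagen is made by fibroblasts, while the tumor cells themselves make basement membrane and other collagens.

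The repeat that makes a chain a collagen can be read from the coding sequence, where glycine is any codon of the form GGN. In the longest coding transcript of GENCODE 29, the longest uninterrupted run of codon triplets that each open with GGN held 216 to 343 triplets in the 11 fibrillar genes (median 338). It held 37 to 87 triplets in the 5 collagen VI genes, 30 to 75 in the 9 basement membrane genes, 32 to 113 in the 10 FACIT genes, 43 to 56 in the 4 transmembrane genes and 23 to 61 in the 5 other genes. The fibrillar group therefore did not overlap any other group in this sequence feature. The selection by symbol did not use it, but the types follow known collagen classes, which are not independent of helix structure. The difference is thus a description and not a test of the grouping. The start of that run is printed for COL8A1, the collagen with the largest fall, for COL7A1, which rose, and for the fibrillar chain COL5A1, to show the same repeat in chains of different types. Capitals mark the GGN codons, and codons are counted from the start codon: 351 to 374 in COL8A1, 2527 to 2550 in COL7A1 and 559 to 582 in COL5A1.
COL8A1: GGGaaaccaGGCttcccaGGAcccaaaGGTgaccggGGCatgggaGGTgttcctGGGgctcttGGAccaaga
COL7A1: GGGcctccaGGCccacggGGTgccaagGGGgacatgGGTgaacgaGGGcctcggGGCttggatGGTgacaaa
COL5A1: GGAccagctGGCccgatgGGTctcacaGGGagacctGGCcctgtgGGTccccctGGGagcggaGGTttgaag
The complete runs held 61 triplets in COL8A1, 75 in COL7A1 and 338 in COL5A1.

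The MDA231-LN libraries held 17661542 to 18882719 counted fragments and the parental libraries 16461578 to 19171017. Levels are given as CPM, counts relative to library size, with sizes scaled by TMM, a normalization that assumes most genes are unchanged. Log2 fold changes are MDA231-LN minus parental with an approximate standard error (SE). This SE is the absolute log2 fold change over the square root of the F statistic of the test named next. A gene "rose" or "fell" where MDA231-LN was above or below the parental line at a Benjamini-Hochberg adjusted p under 0.05 in the edgeR quasi-likelihood test over all 14176 genes kept by the filter on low counts. All 6 markers of MDA-MB-231 chosen as present (VIM, CD44, AXL, CAV1, LGALS1 and MSN) were expressed in both lines. They summed to 6290 to 6520 CPM in MDA231-LN and 5170 to 5400 CPM in the parental line. MSN fell 2.5-fold and the other 5 rose. Of all 14176 tested genes 62.8% passed, 31.6% higher and 31.2% lower, which is the background for the marker counts in this paragraph. Of the 7 expected to be low or absent, PGR had 0 counts in MDA231-LN and 1 in the parental line, and CDH1 had 24 and 11. ESR1 was at 0.951 and 0.164 CPM and rose 5.28-fold (edgeR adjusted p = 0.00403). EPCAM (15.17 and 13.02 CPM) and GATA3 (17.35 and 19.84 CPM) were expressed in both lines. ERBB2 (89.8 and 90.4 CPM) and the keratin gene KRT8 (577.9 and 608.4 CPM) were not low in either. These last 4 genes did not pass. The 12 fibroblast markers summed to 107 to 132 CPM in MDA231-LN and 365 to 481 CPM in the parental line. Of these, 5 could be tested: PDPN and LUM rose, while S100A4, PDGFRB and FBLN1 fell. The defining gene DCN had 2 counts in MDA231-LN and 0 in the parental line; PDGFRA, THY1 and DPT had none, but lie largely inside other genes and are therefore poorly measured. The 10 endothelial markers summed to 22.1 to 24.5 CPM in MDA231-LN and 216 to 235 CPM in the parental line, with CDH5 at 3 and 0 counts. Of 5 tested endothelial markers 4 fell: ESAM (12.1 CPM in MDA231-LN and 189.2 CPM in the parental line), TIE1 (2 and 1069 counts), KDR (1.46 and 2.76 CPM) and VWF (0.227 and 0.728 CPM). The 10 leukocyte markers summed to 1.34 to 3.48 CPM in MDA231-LN and 1.22 to 2.85 CPM in the parental line, with CD3E and MS4A1 among those at 0 counts. PDPN, LUM and ESR1 reached the low-count filter's 0.548 CPM in every library of MDA231-LN but not of the parental line. TIE1 and VWF reached it in every parental library but not in every MDA231-LN library. Their rises and falls therefore come from genes that entered the test through 1 line alone. The part of the markers in the collagen levels was not tested.

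Of the 44 collagen genes, 27 had enough counts to be tested; 17 rose, 7 fell and 3 did not pass. Of all 14176 tested genes 62.8% passed, 31.6% higher and 31.2% lower, which is the background for these counts; 88.9% of the tested collagens passed. At least 2-fold differences were found in 14 collagens that rose and 3 that fell, or 63% of those tested. The same criterion was met by 20.6% of all tested genes, 13% higher and 7.53% lower. The median log2 fold change was 1.04 over the tested collagens and 0.02 over all tested genes. The 3 MDA231-LN libraries did not overlap the 3 parental ones for 24 of the 27 tested collagens (88.9%), against 66.6% of all tested genes. These counts cover tested members only: 6 collagens (COL3A1, COL8A2, COL15A1, COL19A1, COL20A1 and COL25A1) reached the filter's 0.548 CPM in every library of MDA231-LN but not of the parental line, and none did so through the parental line alone. The count of rises therefore includes genes that entered the test through MDA231-LN alone.

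**Figure D1:**
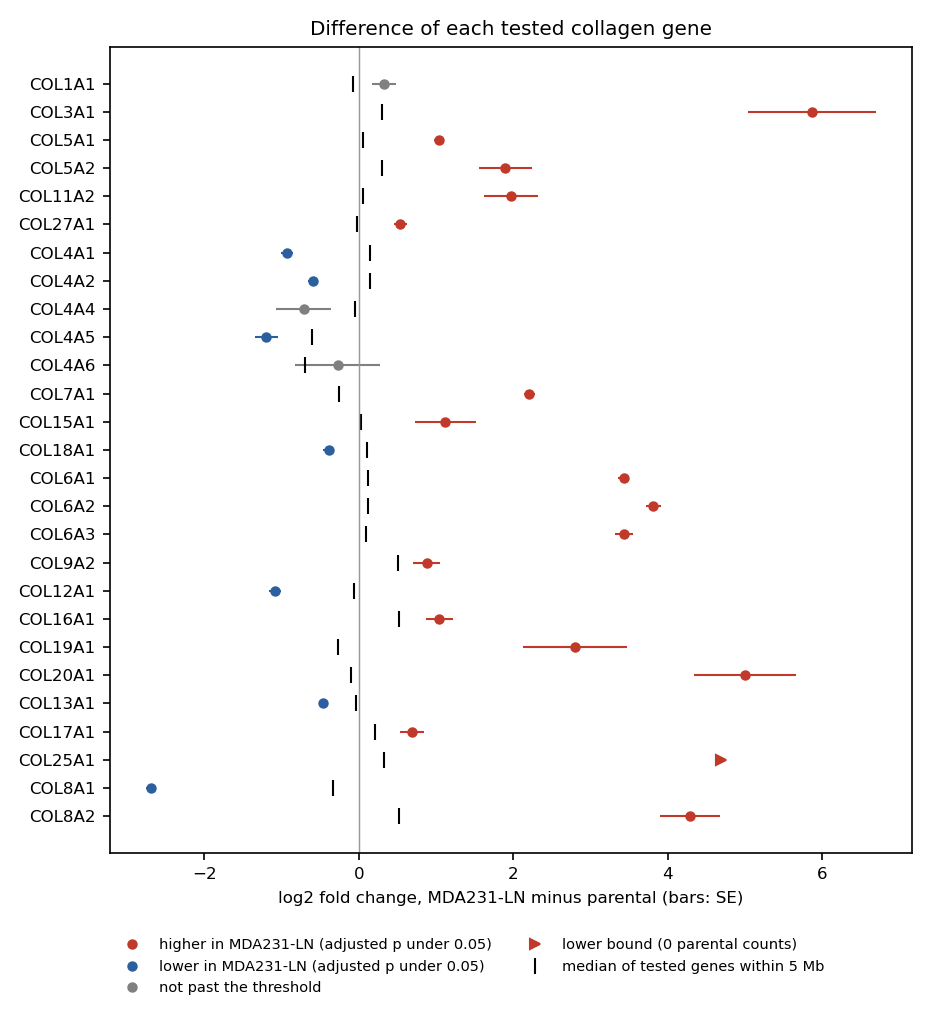
Log2 fold change, MDA231-LN minus parental, of the 27 tested collagen genes with bars of 1 SE, grouped by type; red marks genes that rose, blue genes that fell, grey genes that did not pass (edgeR quasi-likelihood, adjusted p under 0.05), the triangle a lower bound for COL25A1, which had 0 parental counts, and short vertical ticks the median of tested genes within 5 Mb. All 3 tested collagen VI chains lie between 3.43 and 3.81, COL8A1 and COL8A2 lie on opposite sides of 0, and 4 of 8 basement membrane genes are blue; the points of COL3A1 and COL20A1, with 1 and 3 parental counts, depend on the prior count of the fit.

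All 3 tested chains of collagen VI rose more than 10-fold. COL6A1, which encodes the alpha-1 chain (chromosome 21, 45981770 to 46005050 of GRCh38, plus strand), had 434.3, 437.7 and 473.4 CPM in MDA231-LN, against 44.3, 43.86 and 36.88 CPM in the parental line. The lowest MDA231-LN library was thus far above the highest parental one, and the fold change was 10.8 (log2 fold change 3.43 ± 0.07 SE, edgeR adjusted p = 2.35e-23). COL6A2, the alpha-2 chain (chromosome 21, 46098112 to 46132848, plus strand), had 187.8, 182.9 and 183.1 CPM in MDA231-LN, against 14.75, 14.83 and 10.06 CPM in the parental line. Its 14.1-fold rise (log2 fold change 3.81 ± 0.09 SE, edgeR adjusted p = 7.25e-22) again left the groups without overlap. COL6A3, the long alpha-3 chain (chromosome 2, 237324003 to 237414328, minus strand), had 75.14, 73.56 and 64.35 CPM in MDA231-LN, against 5.545, 5.768 and 8.243 CPM in the parental line. It lies on another chromosome and rose 10.8-fold (log2 fold change 3.43 ± 0.12 SE, edgeR adjusted p = 9.51e-19), the same factor as COL6A1 at 3 digits. COL6A6, an alternative chain, was too low to be tested: it had 15, 6 and 12 counts in MDA231-LN and 0 in all 3 parental libraries, at least 9.81-fold higher against a floor of 3 counts over the parental libraries. COL6A5, a further alternative chain, had 5, 3 and 0 counts in MDA231-LN and 0 in all 3 parental libraries, so the lines overlapped. The floor covers counting error only.

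The 55 tested genes that are not collagens within 5 Mb of COL6A1 and COL6A2 had a median log2 fold change of 0.12, with 19 higher and 11 lower. Around COL6A3 the 62 such genes had a median of 0.10, with 19 higher and 13 lower. Per kilobase of exon, COL6A1 ranked first of the 44 collagens in MDA231-LN at 83.9 ± 4.06 CPM per kb and seventh in the parental line at 7.80 ± 0.779 CPM per kb (SD, n = 3). The ratio of COL6A2 to COL6A1 per exon kilobase was 0.429, 0.415 and 0.384 in MDA231-LN, against 0.330, 0.335 and 0.271 in the parental line. The ratio of COL6A3 to COL6A1 was 0.0471, 0.0457 and 0.0370 in MDA231-LN, against 0.0341, 0.0358 and 0.0608 in the parental line, so that the lines overlapped for this ratio and not for the first. In both lines the counts of the 3 chains per exon kilobase were therefore far from equal. These counts include introns, and with the length of the whole gene the mean COL6A2 to COL6A1 ratio was 0.276 in MDA231-LN and 0.211 in the parental line.

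The bases before the RefSeq start of 2 collagen VI genes are shown because COL6A2 and COL6A3 lie on different chromosomes and rose 14.1-fold and 10.8-fold. They come from the RefSeq promoter table of build GRCh38.p14, which holds 32 of the 44 collagen genes. Capitals mark the core promoter motif TATAAA, the motif CCAAT, which NF-Y binds, and the motif GGGCGG, which SP1 binds, on either strand; the AP-1 motif TGANTCA was searched as well, and none of these motifs overlaps another in the 2 sequences. The COL6A2 sequence is chr21:46097862-46098111, plus strand, and the COL6A3 sequence is chr2:237414165-237414414, minus strand, printed from 5′ to 3′. The Ensembl annotation used for counting ends COL6A3 at 237414328, so most of its printed window lies inside the gene as counted.
COL6A2: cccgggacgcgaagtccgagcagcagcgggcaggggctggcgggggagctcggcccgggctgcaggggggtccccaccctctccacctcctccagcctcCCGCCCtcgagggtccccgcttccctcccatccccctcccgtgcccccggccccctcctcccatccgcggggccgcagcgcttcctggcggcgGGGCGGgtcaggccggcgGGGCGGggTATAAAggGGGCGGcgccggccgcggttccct
COL6A3: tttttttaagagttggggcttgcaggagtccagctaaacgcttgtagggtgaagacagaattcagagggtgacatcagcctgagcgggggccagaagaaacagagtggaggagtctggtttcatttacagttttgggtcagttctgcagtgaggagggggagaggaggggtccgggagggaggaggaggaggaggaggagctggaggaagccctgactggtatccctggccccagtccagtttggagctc
The COL6A2 window held TATAAA once and GGGCGG 4 times, with 79.6% G and C. None of the 4 motifs occurred in the COL6A3 window, whose G and C share was 56.0%. Over the 250 bases before the start of all 27305 promoters in the table, TATAAA was found in 11.1%, CCAAT in 33.0%, GGGCGG in 42.3% and TGANTCA in 6.60%. In the 32 collagen promoters they were found in 5, 9, 18 and 0. A match is a description of letters, not of a used site.

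The basement membrane group was split. Of 9 genes, 8 were tested. COL7A1 and COL15A1 rose, COL4A1, COL4A2, COL4A5 and COL18A1 fell, and COL4A4 and COL4A6 did not pass. Of those tested 75% passed, against 62.8% of all tested genes, where 31.6% were higher and 31.2% lower. COL15A1 entered the test through MDA231-LN alone. COL7A1, whose product forms the anchoring fibrils that tie the basement membrane to the stroma below (chromosome 3, 48564073 to 48595329), had 248.7, 252.2 and 283.9 CPM in MDA231-LN, against 62.4, 55.97 and 51.81 CPM in the parental line. The groups did not overlap and the fold change was 4.62 (log2 fold change 2.21 ± 0.07 SE, edgeR adjusted p = 1.92e-19). The 156 tested neighbours of COL7A1 within 5 Mb had a median log2 fold change of -0.25, on the other side of 0.

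COL4A1 and COL4A2 encode the chains of the most widespread collagen IV molecule and are transcribed away from each other on chromosome 13. COL4A1 had 41.03, 45.96 and 41.53 CPM in MDA231-LN, against 83.79, 86.9 and 74.78 CPM in the parental line, a 1.91-fold fall (log2 fold change -0.93 ± 0.08 SE, edgeR adjusted p = 4.75e-11). COL4A2 had 107.9, 105.2 and 120.3 CPM in MDA231-LN, against 172.8, 175.6 and 156.5 CPM in the parental line. It fell 1.51-fold (log2 fold change -0.60 ± 0.06 SE, edgeR adjusted p = 7.35e-09), again without overlap between the lines. The median log2 fold change of their 46 tested neighbours was 0.15. The ratio of COL4A2 to COL4A1 per exon kilobase was 2.01, 1.75 and 2.21 in MDA231-LN, against 1.58, 1.54 and 1.60 in the parental line, all MDA231-LN libraries being above the parental ones. In the annotation used for counting the pair overlap at their starts, and of the exonic bases of COL4A2 16.58% lie inside other genes, where fragments were not counted.

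The RefSeq starts of this pair are 126 bases apart, and the sequence between them is shown because both genes start from it and both fell. It is chr13:110307158-110307283, plus strand, reading towards COL4A2, inside COL4A2 as counted, with the motifs named above in capitals.
Between COL4A1 and COL4A2: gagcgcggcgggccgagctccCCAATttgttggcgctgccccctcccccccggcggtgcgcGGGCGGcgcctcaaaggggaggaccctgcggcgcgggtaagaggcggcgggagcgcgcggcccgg
It holds CCAAT once and GGGCGG once, and neither TATAAA nor TGANTCA on either strand.

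The other collagen IV genes were lower in abundance. COL4A5, a chain of the kidney and skin basement membrane on the X chromosome, had 6.762, 5.266 and 6.322 CPM in MDA231-LN, against 12.74, 14.77 and 14.61 CPM in the parental line, a 2.29-fold fall (log2 fold change -1.20 ± 0.15 SE, edgeR adjusted p = 1.49e-07). Its 34 tested neighbours had a median log2 fold change of -0.61, with 5 higher and 20 lower, so the region as a whole was lower; the part of this in the COL4A5 value was not tested. COL4A4 had 1.281, 1.164 and 2.107 CPM in MDA231-LN and 3.413, 2.409 and 1.713 CPM in the parental line, with overlap (edgeR adjusted p = 0.0831). It passed without parental replicate 3 (edgeR adjusted p = 0.0277) or without MDA231-LN replicate 3 (adjusted p = 0.0386). COL4A6 had 0.5122, 0.8315 and 0.5654 CPM in MDA231-LN and 0.4266, 0.3803 and 1.445 CPM in the parental line, where replicate 3 lies above the rest (log2 fold change -0.28 ± 0.55 SE, edgeR adjusted p = 0.684). Without that library the log2 fold change of COL4A6 was 0.64, of the other sign and likewise not passing (edgeR adjusted p = 0.43). COL4A3, whose exonic bases lie to 97.27% inside other genes, had 0 counts in MDA231-LN and 2 in the parental line and counts as not measured.

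Collagens XV and XVIII, proteoglycan collagens of the basement membrane zone, moved apart. COL15A1 had 2.612, 2.495 and 3.855 CPM in MDA231-LN, against 0.3656, 1.965 and 1.766 CPM in the parental line, with parental replicate 1 lowest. The 2.18-fold rise (log2 fold change 1.12 ± 0.39 SE, edgeR adjusted p = 0.0149) was lost when single libraries were left out. Its adjusted p was 0.0899 without parental replicate 1, when the log2 fold change was 0.68, and 0.109 without MDA231-LN replicate 3. COL18A1, the precursor of endostatin, had 63.52, 60.37 and 72.01 CPM in MDA231-LN, against 89.52, 85.44 and 82.27 CPM in the parental line, a 1.31-fold fall (log2 fold change -0.39 ± 0.07 SE, edgeR adjusted p = 3.55e-05). Of its exonic bases 55.01% lie inside other genes, antisense ones among them, so its level is uncertain.

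**Figure D2:**
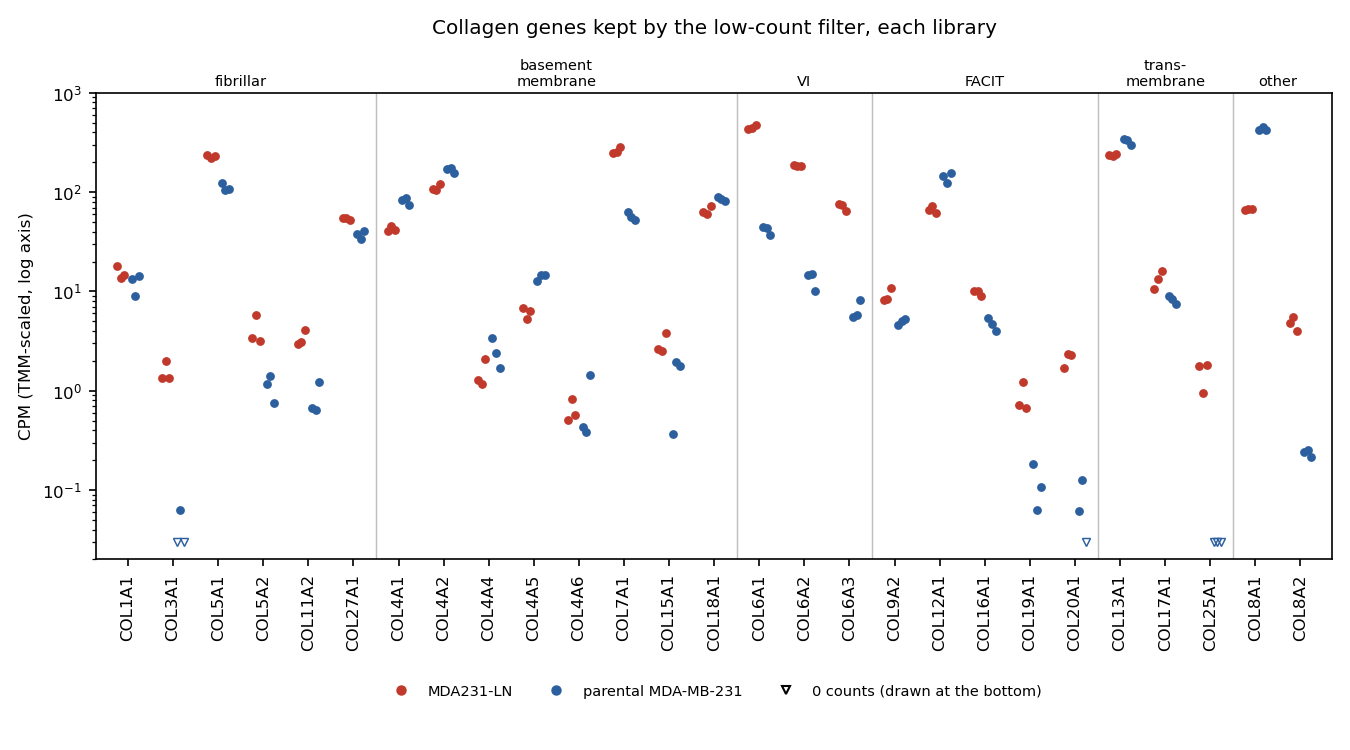
CPM of the tested collagen genes in each library on a logarithmic axis, with MDA231-LN libraries in red and parental libraries in blue. Open triangles at the bottom mark libraries with 0 counts. COL6A1 lies at 434.3 to 473.4 CPM in MDA231-LN, against 36.88 to 44.3 CPM in the parental line, whereas COL8A1 lies at 66.54 to 67.74 CPM in MDA231-LN, against 425.8 to 450.2 CPM in the parental line.

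The 2 chains of collagen VIII, a short-chain network collagen best known from the cornea and vessel wall, differed in opposite directions. COL8A1 (chromosome 3, 99638475 to 99799226) had 66.54, 67.74 and 67.02 CPM in MDA231-LN, against 425.8, 450.2 and 426.2 CPM in the parental line. This 6.47-fold fall (log2 fold change -2.69 ± 0.06 SE, edgeR adjusted p = 6.04e-23) was the largest fall among the tested collagens. COL8A2 (chromosome 1, 36095239 to 36125222) had 4.815, 5.488 and 3.958 CPM in MDA231-LN, against 0.2438, 0.2535 and 0.2141 CPM in the parental line, a 19.6-fold rise (log2 fold change 4.29 ± 0.39 SE, edgeR adjusted p = 3.52e-10). This gene entered the test through MDA231-LN alone, with 4 counts in each parental library. Per exon kilobase COL8A1 remained above COL8A2, at 7.13 and 1.02 CPM per kb in MDA231-LN and at 46.1 and 0.0508 CPM per kb in the parental line. The neighbours of each gene leaned the same way by less: 34 around COL8A1 had a median log2 fold change of -0.33, with 6 higher and 20 lower, and 113 around COL8A2 one of 0.53, with 83 higher and 7 lower.

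Of the 11 fibrillar genes 6 were tested; 5 rose, none fell and COL1A1 did not pass. Of all tested genes, 31.6% rose and 31.2% fell. The fibrillar rises include COL3A1, which entered the test through MDA231-LN alone. COL5A1, a chain of collagen V that helps start fibril assembly (chromosome 9, 134641803 to 134844843), had the highest level of the fibrillar genes per exon kilobase in both lines. The counts include introns, and COL5A1 spans 203041 bases against 17532 for COL1A1, so this order depends on the length used. COL5A1 had 236.9, 220.2 and 231.8 CPM in MDA231-LN, against 122.5, 104.7 and 108.6 CPM in the parental line. It rose 2.05-fold without overlap (log2 fold change 1.04 ± 0.06 SE, edgeR adjusted p = 9.98e-14). Its partner chain COL5A2 had 3.381, 5.765 and 3.135 CPM in MDA231-LN, against 1.158, 1.394 and 0.7494 CPM in the parental line, and rose 3.73-fold (log2 fold change 1.90 ± 0.34 SE, edgeR adjusted p = 2.27e-05). Per exon kilobase COL5A2 was at 0.0214, 0.0393 and 0.0203 of COL5A1 in MDA231-LN and at 0.0142, 0.0200 and 0.0104 in the parental line, so the alpha-1 chain dominated both. The remaining chain, COL5A3, had 0 counts in all 6 libraries.

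COL3A1, the chain of the reticular fibre collagen, was barely present in the parental line. It had 1.332, 1.996 and 1.336 CPM in MDA231-LN, against 0, 0.06338 and 0 CPM in the parental line, or 88 counts against 1. The ratio of counts over library size was 78.5 (exact 95% counting interval 13.7 to 3136), and the gene rose (edgeR adjusted p = 7.38e-07). COL3A1 and COL5A2 are neighbours on chromosome 2, and the 31 other tested genes within 5 Mb had a median log2 fold change of 0.30, with 14 higher and 2 lower. COL11A2, a chain of the cartilage fibrillar collagen XI, had 2.971, 3.104 and 4.060 CPM in MDA231-LN, against 0.6703, 0.6338 and 1.231 CPM in the parental line, and rose 3.92-fold (log2 fold change 1.97 ± 0.35 SE, edgeR adjusted p = 2.4e-05). COL27A1, a fibrillar chain with a shorter and imperfect helix, had 54.35, 55.49 and 52.01 CPM in MDA231-LN, against 37.48, 33.4 and 40.31 CPM in the parental line, a 1.45-fold rise (log2 fold change 0.54 ± 0.08 SE, edgeR adjusted p = 2.73e-06).

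Collagen I, the main fibre collagen of connective tissue, was low in both lines. COL1A1 had 17.88, 13.8 and 14.65 CPM in MDA231-LN and 13.41, 9.064 and 14.4 CPM in the parental line; the groups overlapped and the gene did not pass (log2 fold change 0.33 ± 0.15 SE, edgeR adjusted p = 0.0636). It passed with upper-quartile scaling (edgeR adjusted p = 0.0178), with no filter (0.0428), with the replicate number as a block (0.036) and without parental replicate 3 (0.016). COL1A2, the other chain of collagen I, had 16, 4 and 1 counts in MDA231-LN and 0, 2 and 4 in the parental line, too few to be tested, with most of its MDA231-LN counts in replicate 1. Per exon kilobase COL1A2 reached at most 0.0404 of COL1A1 in any MDA231-LN library and at most 0.0131 in any parental library, although the common collagen I molecule contains both chains. With the length of the whole gene these highest ratios were 0.0221 and 0.00718. COL2A1, COL11A1 and COL24A1 were not tested either. COL24A1 had 33 counts in MDA231-LN and 2 in the parental line, a ratio of 14.7 (exact 95% counting interval 3.76 to 127), COL2A1 had 6 and 0, at least 1.78-fold higher, and COL11A1 had 2 and 4.

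Of the 10 FACIT genes 5 were tested, of which 4 rose and COL12A1 fell, where 31.6% of all tested genes rose and 31.2% fell. The rises include COL19A1 and COL20A1, which entered the test through MDA231-LN alone. COL12A1, which binds the surface of collagen I fibrils (chromosome 6, 75084326 to 75206267), had 65.62, 72.62 and 61.88 CPM in MDA231-LN, against 145.5, 122.5 and 155.8 CPM in the parental line. Per exon kilobase it was the highest FACIT gene in both lines, and it fell 2.12-fold (log2 fold change -1.08 ± 0.08 SE, edgeR adjusted p = 3.48e-12), while its 27 tested neighbours had a median of -0.06. The FACIT genes that rose had lower levels per exon kilobase. COL16A1 had 10.19, 10.09 and 8.943 CPM in MDA231-LN, against 5.423, 4.754 and 4.014 CPM in the parental line (2.06-fold, edgeR adjusted p = 1.02e-05), and an antisense gene covers 21.45% of its exonic bases. COL9A2, a chain of the cartilage collagen IX, had 8.247, 8.371 and 10.79 CPM in MDA231-LN, against 4.631, 5.007 and 5.246 CPM in the parental line (1.84-fold, edgeR adjusted p = 0.000113). Both lie on chromosome 1 among neighbours that were higher as well, with median log2 fold changes of 0.53 over 115 genes and 0.51 over 117 genes; the part of this in their values was not tested.

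COL20A1 and COL19A1 were close to absent in the parental line. COL20A1 had 120 counts in MDA231-LN and 3 in the parental line, a ratio of 35.7 (exact 95% counting interval 11.9 to 175, edgeR adjusted p = 2.61e-07). COL19A1 had 49 counts in MDA231-LN and 6 in the parental line, and rose 6.98-fold (log2 fold change 2.80 ± 0.68 SE, edgeR adjusted p = 0.000782). Both stayed at or below 2.33 CPM in every library, and their parental levels sat near the floor. Of the 5 FACIT genes left untested, COL21A1 had 18 counts in MDA231-LN and 2 in the parental line, a ratio of 8.03 (exact 95% counting interval 1.92 to 71.4). COL14A1 had 7 and 3, COL9A3 13 and 12 and COL9A1 2 and 0 counts in MDA231-LN and the parental line, and COL22A1 had 0 in both.

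The 3 tested transmembrane collagens did not move together. COL13A1, found at cell-matrix adhesions and at the neuromuscular junction (chromosome 10, 69801880 to 69964275), had 237.4, 229.5 and 240.9 CPM in MDA231-LN, against 341.3, 333 and 301.7 CPM in the parental line. It fell 1.38-fold (log2 fold change -0.46 ± 0.06 SE, edgeR adjusted p = 6.92e-08) without overlap. COL13A1 nevertheless ranked second of the 44 collagens per exon kilobase in MDA231-LN (40.1 ± 1.00 CPM per kb) and first in the parental line (55.3 ± 3.55 CPM per kb; SD, n = 3). The counts include introns, and this gene spans 162396 bases with an exon length of 5888, so these ranks depend on the length used. COL17A1, a component of the hemidesmosomes that hold epithelial cells to the basement membrane, had 10.65, 13.36 and 15.88 CPM in MDA231-LN, against 8.958, 8.367 and 7.387 CPM in the parental line, a 1.62-fold rise (log2 fold change 0.69 ± 0.16 SE, edgeR adjusted p = 0.00042). COL25A1, a neuronal transmembrane collagen found in amyloid plaques, had 87 counts in MDA231-LN and 0 in the parental line, at least 25.9-fold higher against the floor of 3 counts (edgeR adjusted p = 7.3e-07). It entered the test through MDA231-LN alone. COL23A1 was too low to be tested, with 7 counts in MDA231-LN and 15 in the parental line.

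The remaining genes could not be compared. COL10A1, the collagen of hypertrophic cartilage, had 0 counts in all 6 libraries, but all of its exonic bases lie inside another gene and it is not measured. COL28A1 had 4, 0 and 1 counts in MDA231-LN and 0 in all parental libraries, so the lines overlapped, and COL26A1 had 6 and 8 counts in MDA231-LN and the parental line. Of the 17 untested genes only COL2A1, COL6A6, COL21A1 and COL24A1 had every MDA231-LN library above every parental one, and these 4 are described by their counts alone.

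Added up, the 44 genes took 1898, 1882 and 1975 CPM in MDA231-LN, against 1598, 1563 and 1507 CPM in the parental line (means 1918 ± 49.6 and 1556 ± 46.3, SD, n = 3). The sum did not overlap between the lines but differed far less than its composition, as the plot of shares by type shows. Collagen VI held 36.5 to 36.9% of all collagen counts in MDA231-LN and 3.66 to 4.12% in the parental line. COL8A1 alone held 3.39 to 3.6% in MDA231-LN and 26.6 to 28.8% in the parental line. The fibrillar share was 15.6 to 16.8% in MDA231-LN and 9.56 to 11% in the parental line, and the FACIT share 4.30 to 5.08% and 8.53 to 11%. Transmembrane collagens held 13.0 to 13.2% in MDA231-LN and 20.5 to 21.9% in the parental line. The basement membrane share overlapped, at 24.9 to 26.9% in MDA231-LN and 25.6 to 27.1% in the parental line, although within it COL7A1 was higher and COL4A1 and COL4A2 lower in MDA231-LN. Shares of counts favour long transcripts and, because introns were counted, can favour long genes. They also add up to a fixed total, so a higher share of one type lowers the others.

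**Figure D3:**
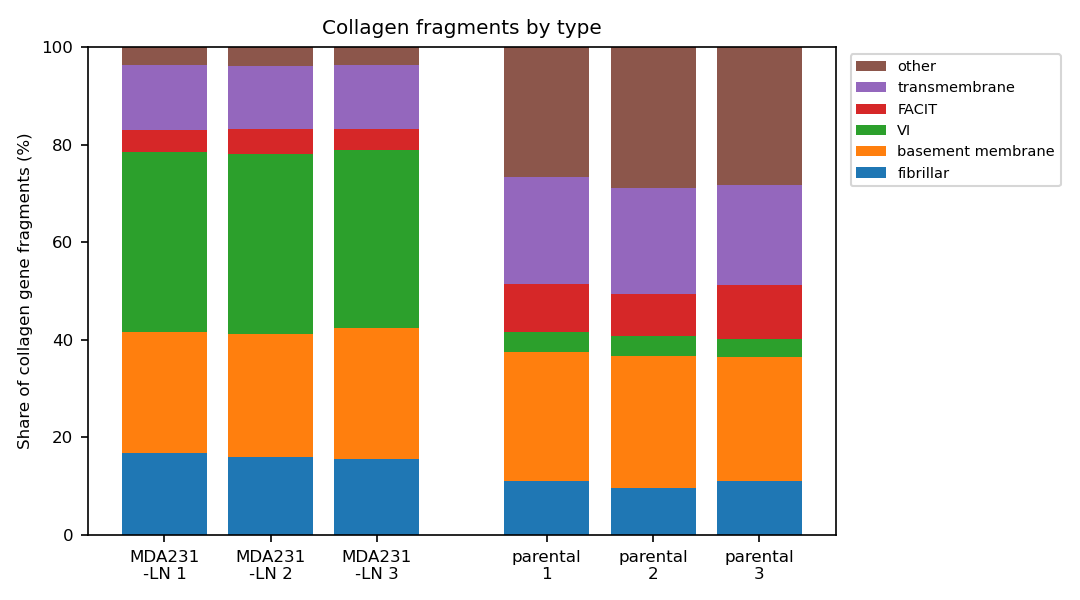
Share of all collagen counts held by each collagen type in each library, in percent, with the MDA231-LN libraries left of the parental ones. Collagen VI takes 36.5 to 36.9% in MDA231-LN and 3.66 to 4.12% in the parental line, and the group of collagens VIII, X, XXVI and XXVIII takes 3.61 to 3.89% in MDA231-LN and 26.7 to 28.8% in the parental line.

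The genes that make, bind or degrade collagen were examined in 5 lists of 78 genes. Of 63 tested, 17 rose and 34 fell, and 81% passed, against 62.8% of all tested genes, 31.6% higher and 31.2% lower. At least 2-fold, 9 rose and 12 fell, or 33.3%, against 20.6% of all tested genes, 13% higher and 7.53% lower. The median log2 fold change was -0.20. With upper-quartile scaling 21 rose and 31 fell. P3H3, ADAMTS14, TLL2, LAIR1, MMP3 and MMP13 reached the filter's 0.548 CPM in every library of MDA231-LN but not of the parental line. MMP2 reached it in every parental library but not in MDA231-LN. The counts of rises and falls and the shares that passed therefore include genes that entered the test through 1 line alone. Of the 14 tested genes for hydroxylation and glycosylation of chains, 2 rose and 8 fell, or 71.4% that passed. P3H2, a prolyl 3-hydroxylase, had 49.79, 53.61 and 51.19 CPM in MDA231-LN, against 151.1, 158.1 and 136.9 CPM in the parental line, a 2.88-fold fall (edgeR adjusted p = 1.78e-16). Its relative P3H3 had 13.06, 12.97 and 13.88 CPM in MDA231-LN, against 0.1828, 0.5704 and 0.8564 CPM in the parental line, a 24-fold rise (edgeR adjusted p = 5.13e-14). The family members thus lay on opposite sides, while P3H1 did not pass, at 106.2 ± 3.59 and 103.4 ± 5.11 CPM. PLOD2, which hydroxylates telopeptide lysines for cross-linking, had 32.89, 32.93 and 30.27 CPM in MDA231-LN, against 76.66, 86.64 and 76.33 CPM in the parental line (2.49-fold lower, edgeR adjusted p = 6.88e-14); other genes cover 86.84% of its exonic bases, so its level is uncertain. For P3H3 that share is 32.12%.

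Of 12 tested genes for folding and secretion, 2 rose and 6 fell, so that 66.7% passed, near the 62.8% of all tested genes. SPARC, a matrix glycoprotein that binds collagen and aids its secretion, had 41.08, 44.68 and 42.35 CPM in MDA231-LN, against 1.036, 1.394 and 1.017 CPM in the parental line (37.2-fold higher, edgeR adjusted p = 2.43e-20). SERPINH1, the collagen chaperone HSP47, had 88.62, 92.63 and 98.32 CPM in MDA231-LN, against 272.9, 293.8 and 259.3 CPM in the parental line, and fell 2.95-fold (edgeR adjusted p = 1.6e-17). The chaperone was thus lower in the line whose collagen sum was higher. KDELR2 and FKBP14 had 0 counts and lie nearly or wholly inside other genes, so they are not measured.

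Among 13 tested genes of procollagen processing and cross-linking, 4 rose and 6 fell; 76.9% passed, against 62.8% of all tested genes. The 4 that rose became 2 without MDA231-LN replicate 2, and likewise without MDA231-LN replicate 3. The cross-linking enzymes TGM2, a transglutaminase, and LOXL2, a lysyl oxidase, fell. Among the other lysyl oxidases LOXL1 fell, LOXL4 rose 1.28-fold (edgeR adjusted p = 0.000549), and LOX and LOXL3 did not pass. Other genes cover over 50% of the exonic bases of LOX, LOXL1 and LOXL3, so their levels are uncertain. TGM2 had 485.7, 492.7 and 471.1 CPM in MDA231-LN, against 2241, 2384 and 2188 CPM in the parental line (4.70-fold lower, edgeR adjusted p = 2.44e-22). LOXL2 had 136.5, 128.5 and 124.2 CPM in MDA231-LN, against 575.3, 619.9 and 548.8 CPM in the parental line (4.48-fold lower, edgeR adjusted p = 6.9e-21). ADAMTS14, a procollagen N-proteinase, rose 31.9-fold, with 17.93, 15.8 and 13.98 CPM in MDA231-LN, against 0.6703, 0.3169 and 0.4817 CPM in the parental line (edgeR adjusted p = 1.19e-15). TLL2, of the C-proteinase family, had 48 counts in MDA231-LN and 17 in the parental line and rose 2.51-fold (edgeR adjusted p = 0.0378). BMP1, the main C-proteinase, fell, at 29.4 ± 0.664 CPM in MDA231-LN and 48.9 ± 1.24 CPM in the parental line (SD, n = 3).

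All 14 tested collagen receptor genes passed, 4 higher and 10 lower, where 62.8% of all tested genes passed, 31.6% higher and 31.2% lower. The integrin alpha chains ITGA10 and ITGA2, which bind collagen with integrin beta-1, fell. ITGA10 had 8.554, 9.202 and 11.31 CPM in MDA231-LN, against 69.65, 67.76 and 89.18 CPM in the parental line (7.80-fold lower, edgeR adjusted p = 1.05e-17). ITGA2 had 186, 187 and 178.9 CPM in MDA231-LN, against 475.7, 467.6 and 552 CPM in the parental line (2.71-fold lower, edgeR adjusted p = 7.14e-17). ANTXR1, a receptor that binds collagen VI, had 77.96, 79.38 and 80.33 CPM in MDA231-LN, against 156.7, 161.9 and 171.8 CPM in the parental line, and fell 2.06-fold (edgeR adjusted p = 4.2e-14), whereas its relative ANTXR2 rose 1.61-fold (241 ± 3.83 and 149.6 ± 14.2 CPM, SD, n = 3). OSCAR, an immune receptor for collagen, had 47 counts in MDA231-LN and 451 in the parental line (10.8-fold lower, edgeR adjusted p = 4.16e-11). LAIR1, another immune receptor, had 44 counts in MDA231-LN and 0 in the parental line, at least 13.1-fold higher.

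Of 10 tested genes of collagen breakdown, 5 rose and 4 fell, or 90% that passed, against 62.8% of all tested genes. MMP14, the membrane-anchored collagenase, had 433.1, 450.6 and 470.9 CPM in MDA231-LN, against 1174, 1280 and 1119 CPM in the parental line, and fell 2.64-fold (edgeR adjusted p = 1.83e-17). MMP2, the gelatinase that MMP14 activates, had 2 counts in MDA231-LN and 64 in the parental line, a ratio of 35.9 parental over MDA231-LN (exact 95% counting interval 9.53 to 303, edgeR adjusted p = 3.12e-06). MMP16, a relative of MMP14, had 25.66, 26.61 and 22.97 CPM in MDA231-LN, against 8.836, 11.16 and 11.78 CPM in the parental line, and rose 2.36-fold (edgeR adjusted p = 1.96e-09). MMP13, a secreted collagenase, had 196 counts in MDA231-LN and 10 in the parental line and rose 16.9-fold (edgeR adjusted p = 1.38e-07). MMP1, the interstitial collagenase, had 0 counts in both lines, but it lies wholly inside another gene and is not measured.

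**Figure D4:**
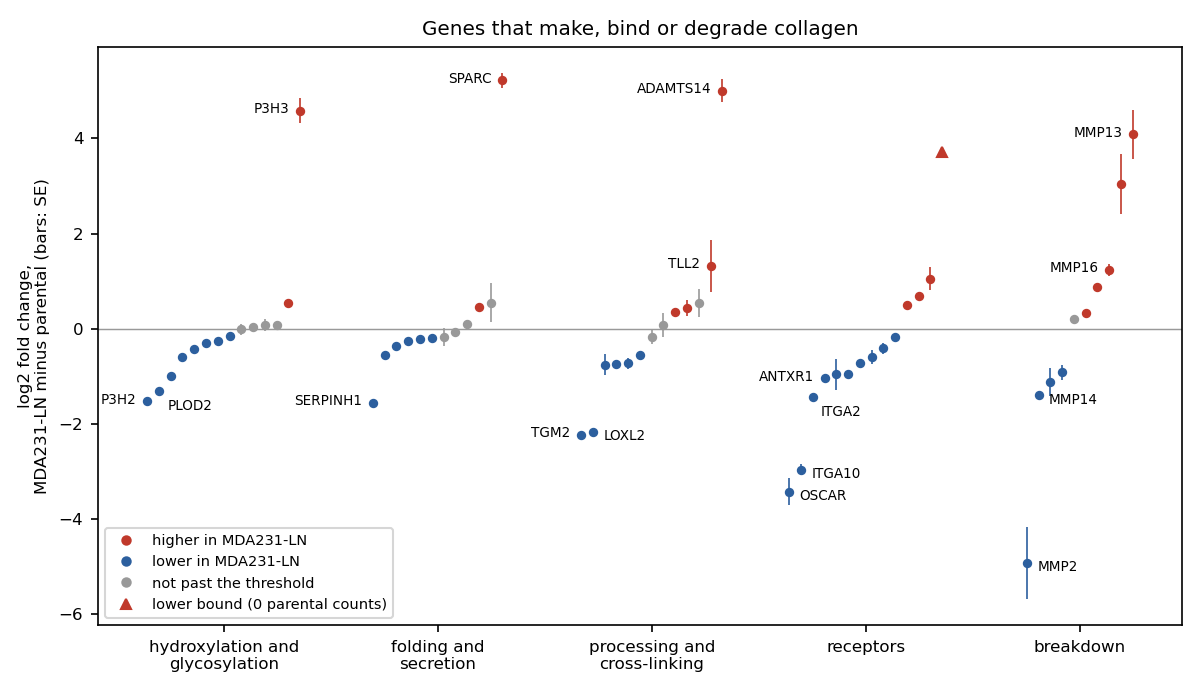
Log2 fold change, MDA231-LN minus parental, of the 63 tested genes that make, bind or degrade collagen, by list, with bars of 1 SE; red marks genes that rose, blue genes that fell, grey genes that did not pass, and the triangle the lower bound for LAIR1. SPARC, ADAMTS14, P3H3 and MMP13 stand above 4, while TGM2, LOXL2, ITGA10, OSCAR and MMP2 stand below -2.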

How the data were processed

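The authors deposited 1 table of unnormalized fragment counts, with 61541 genes and 6 libraries. Per the file headers, the authors counted fragments with featureCounts 2.0.1 on Ensembl release 105 over whole gene bodies, introns included, without strand, and dropped fragments that overlap several genes or map to several places, so genes inside other genes can have few counts while expressed. The submitters' processing notes name GRCh38 and STAR, whose version is not given in the sources used here.

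Symbols matched 61369 genes. Counts were scaled by TMM and compared by edgeR 4.0.16 (quasi-likelihood, R 4.3.3) after filterByExpr, which kept 14176 genes, as MDA231-LN minus parental, with Benjamini-Hochberg adjustment over these genes and a threshold of 0.05. A line with 0 counts gives a lower bound against 3 counts over its 3 libraries (0.0526 CPM for MDA231-LN and 0.059 CPM for parental cells). Ratios with 1 to 3 counts have exact 95% intervals; both reflect counting error alone, because fragments carried no molecular identifiers and need not be independent molecules. Exon lengths, overlaps and coding sequences came from GENCODE 29, and promoters from RefSeq (GRCh38.p14). The libraries differed beyond sampling noise within a line (chi-square per degree of freedom 3.73 to 8.47) and between lines (84.1 to 98.4), so no pair was taken for a duplicate deposit of 1 library; separate cultures and repeat preparations cannot be told apart this way. On simulated data of 14176 genes, edgeR recovered 72.1% of 68 genes changed 1.5-fold, 81.2% of 69 at 2-fold and 98.4% of 63 at 4-fold. Of the 13976 unchanged genes, 17 passed. Far fewer genes were changed there than the 62.8% that passed in the data, so these rates may not hold for this comparison.

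Alternatives tried were scaling by RLE or by the upper quartile, leaving out the filter, filtering at 1 CPM, the replicate number as a block, DESeq2 1.42.0, limma-voom (limma 3.58.1), an adjusted p under 0.01, glmTreat against 1.5-fold, each library left out, omitting genes whose exonic bases lie to over 50% inside another, and gene length or, chosen after seeing the data, coding length for levels. Every collagen gene is described; from each list of other genes, up to 4 with the smallest adjusted p among those that passed and changed at least 2-fold are named. P3H1, BMP1, LOX, LOXL1, LOXL3, LOXL4, ANTXR2, LAIR1, KDELR2, FKBP14 and MMP1 were named after their values were seen. The members and lists were chosen with earlier results of these data known.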

Additional observations from a re-analysis of the deposited data

How the results depend on the processing

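Of the 24 collagens that passed, 17 kept their direction and their call in every alternative that gave a value. The counts of 17 collagens higher and 7 lower ranged over 13 to 20 and 4 to 8 over the 16 alternatives, and over 16 to 19 and 7 to 8 when single libraries were left out. Against 1.5-fold with glmTreat, 4 collagens were lower, 1935 and 1534 of all tested genes were higher and lower, and 9 and 17 of the partner genes, since this test asks for more than a difference from 0. It ended the calls of COL4A2, COL9A2, COL13A1, COL15A1, COL17A1, COL18A1 and COL27A1. COL15A1 also lost its call at an adjusted p under 0.01. COL4A6 alone changed sign, with log2 fold changes of -0.58 to 0.64 when single libraries were left out. COL19A1, COL25A1 and COL4A6 have no value with the filter of 1 CPM, nor COL18A1 without overlapped genes. With upper-quartile scaling the median over all genes was 0.13 in place of 0.02 (log2 fold change), and the share higher among all genes that passed was 60% in place of 50.3%; among collagens it was 72% in place of 70.8%. With the replicate block 18 collagens were higher and 7 lower; same-numbered libraries did not deviate together (correlations -0.004, 0.002 and -0.053), and libraries did not all correlate best with their own number. With coding length the COL4A2 to COL4A1 ratio was 2.54 in MDA231-LN and 2.01 in the parental line. The 17 untested genes had at most 33 counts over the 3 libraries of a line, so differences in them were hard to detect at this depth; COL10A1 and COL4A3 lie almost wholly inside other genes.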
